A study of Mus musculus with 147 samples.

Results

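The genes described here are 33 mouse genes of the unfolded protein response of the endoplasmic reticulum (ER), out of 50686 gene identifiers in each of the 2 deposited count tables. They were listed by name from general knowledge of ER folding, ER-associated degradation and the 3 signalling arms, with earlier results of these data known. All 33 were found in both tables. They comprise 10 chaperones and co-chaperones, 5 disulfide isomerases and oxidoreductases, 8 genes of ER-associated degradation and the translocon, 6 stress sensors and transcription factors, and 4 targets of the transcription factors ATF4 and CHOP. Each gene was also placed in 1 arm (12 in the ATF6 arm, 11 in the IRE1-XBP1 arm, 7 in the PERK-ATF4 arm and 3 in none), although many respond to more than 1.

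The unfolded protein response adjusts the folding capacity of the ER to its load of secretory and membrane proteins. When unfolded proteins accumulate, the chaperone BiP (the product of Hspa5) leaves the membrane sensors IRE1, PERK and ATF6; IRE1 splices Xbp1 mRNA, PERK phosphorylates the initiation factor eIF2 and so favours translation of ATF4, and ATF6 is cut in the Golgi to free a transcription factor. The targets are chaperones and foldases, the machinery that returns misfolded proteins to the cytosol for degradation, and, through ATF4 and CHOP, genes of amino acid supply, eIF2 dephosphorylation and apoptosis. In macrophages the IRE1 arm is also known for its part in cytokine production downstream of Toll-like receptors.

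RNA was measured in 147 libraries of FACS-sorted macrophages and monocytes from mice, in 2 experiments. The refeeding experiment holds 110 libraries of 400 cells each, from mice refed for 2 h after a 12 h fast or mice fasted for 12 h, in 4 cohorts. Refed and fasted libraries numbered 9 and 8 in microglia, blood monocytes and the macrophages of adipose tissue and colon, 7 and 6 in pancreatic islet macrophages and Kupffer cells, and 8 and 8 in peritoneal macrophages. The diet experiment holds 37 libraries in 8 cohorts, from mice on a high-fat diet for 8 weeks that also received streptozotocin (STZ), which kills pancreatic beta cells, in week 4; mice on the high-fat diet alone for 8 weeks; or mice on a normal diet. Those 3 groups numbered 3, 4 and 4 libraries of 400 islet macrophages, 5, 4 and 5 libraries of 100000 peritoneal macrophages, and 4, 4 and 4 libraries of 5000 microglia. No allele, strain, sex or age is given in the labels, and nothing says whether libraries of different populations with the same number came from 1 animal, so p-values measure the spread between libraries.

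Summed gene counts per library lay between 7915242 and 27315750 with refeeding and between 11349232 and 34466388 with diet. None of the 443 pairs of libraries of the same group had identical counts. For 4 libraries titled as refed (replicates 1_2 and 3 of islet macrophages, replicates 1 and 2 of Kupffer cells) the description speaks of the fast alone, and leaving them out left the number of called members at 0 in both populations. Own-type markers were present: the summed level of the microglia list was 14699.6 to 26932 CPM (counts scaled to library size) in refed and 17609 to 25320.2 CPM in fasted microglia, and that of the Kupffer cell list was 8757 to 32751 CPM in refed and 17023 to 26169.5 CPM in fasted Kupffer cells. RNA of other cells was also present, mostly in the colonic libraries, where plasma cell markers summed to a median of 36604 CPM in refed mice and 11275 CPM in fasted mice. Pancreatic acinar cell markers there summed to medians of 13926 CPM in refed and 18067 CPM in fasted mice. In bulk RNA from sorted cells, fewer cells of a type and less RNA per cell cannot be told apart.

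The promoters of some of these genes hold sequence elements known from the response. In windows of 300 bases (250 before and 50 after the RefSeq start, genome build GRCm38.p6), both strands were searched for the ER stress response element ERSE (CCAAT, 9 free bases and CCACG), the related ERSE-II (ATTGG, 1 free base and CCACG), the unfolded protein response element UPRE (TGACGTGG) and the C/EBP-ATF response element CARE (TGATGNAA), a site type bound by ATF4. The ERSE and ERSE-II share the block CCACG, and the UPRE read on its other strand begins with it. An ERSE lay in 9 of the 29 members with a window (31%), against 37 of 27025 genes (0.137%). An ERSE-II lay in 2 members (6.9%) against 12 genes (0.0444%), a CARE in 4 members (13.8%) against 1219 genes (4.51%), and a UPRE in 0 members against 193 genes (0.714%). The elements and the members were both taken from what is known of the response, so these shares are no independent result. These are matches of letters, not sites shown to be bound, and no match says only that these letters were not in the window. The 4 sequences below are the 250 bases before the start of 2 genes that refeeding raised in peritoneal macrophages (Creld2 and Herpud1) and of the chaperones Hspa5 and Hsp90b1. Capitals mark the fixed letters of a matched ERSE or ERSE-II and every letter of a matched CARE.
Creld2, chr15:88819396-88819645, plus strand, with 1 ERSE on the minus strand: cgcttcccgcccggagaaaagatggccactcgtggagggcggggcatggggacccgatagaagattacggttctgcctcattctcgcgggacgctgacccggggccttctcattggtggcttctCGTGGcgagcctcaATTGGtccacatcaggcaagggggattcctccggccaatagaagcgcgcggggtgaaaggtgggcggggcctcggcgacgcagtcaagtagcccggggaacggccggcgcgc
Herpud1, chr8:94386179-94386428, plus strand, with 1 CARE on the minus strand and 1 ERSE-II: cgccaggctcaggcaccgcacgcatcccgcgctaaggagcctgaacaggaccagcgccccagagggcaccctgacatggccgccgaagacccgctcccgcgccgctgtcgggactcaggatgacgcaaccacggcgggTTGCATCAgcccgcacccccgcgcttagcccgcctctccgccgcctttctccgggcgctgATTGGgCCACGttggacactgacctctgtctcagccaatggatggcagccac
Hspa5, chr2:34771840-34772089, plus strand, with 1 ERSE: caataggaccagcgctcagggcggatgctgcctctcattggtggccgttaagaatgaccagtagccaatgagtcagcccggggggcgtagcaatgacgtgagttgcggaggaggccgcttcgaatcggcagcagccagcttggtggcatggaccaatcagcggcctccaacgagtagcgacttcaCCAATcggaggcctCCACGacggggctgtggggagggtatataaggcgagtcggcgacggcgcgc
Hsp90b1, chr10:86705445-86705694, minus strand, with 2 ERSE, 1 on each strand: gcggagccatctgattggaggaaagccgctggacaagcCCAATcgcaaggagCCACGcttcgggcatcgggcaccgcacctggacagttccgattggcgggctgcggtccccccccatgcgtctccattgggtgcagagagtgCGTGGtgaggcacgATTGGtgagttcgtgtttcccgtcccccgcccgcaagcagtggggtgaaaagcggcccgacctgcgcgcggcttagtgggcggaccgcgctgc

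The 7 populations of fasted mice differed in most of these genes. Islet macrophages had 7877 ± 2733 CPM of Hspa5 (SD, n = 6), 17.4 times the 452 ± 116.2 CPM of blood monocytes (n = 8), and peritoneal macrophages had the highest Derl1 and P4hb. Of the 33 members, 25 differed among populations by edgeR's quasi-likelihood F test at an adjusted p below 0.05, and 49.4% of the 16114 genes tested did so. That share is high among all genes, so the count of members is set beside it and not read alone. Called members numbered 9 of 12 in the ATF6 arm, 9 of 11 in the IRE1-XBP1 arm, 5 of 7 in the PERK-ATF4 arm and 2 of 3 in no single arm. The 8 not called were Canx, Creld2, Dnajb11, Eif2ak3, Hyou1, Sel1l, Syvn1 and Trib3. Members had their highest mean in islet macrophages in 9 cases, colonic in 8, peritoneal in 6, adipose in 5, monocytes in 3, and Kupffer cells and microglia in 1 each. Monocytes had the lowest mean of 14 members, 6 of them in the ATF6 arm. Each population was isolated by its own protocol and sorted with its own antibodies, so population and isolation cannot be told apart.

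Hspa5, the Hsp70-type chaperone of the ER lumen, had lowest, median and highest levels of 3498, 9016 and 10604 CPM in islet macrophages. In colonic macrophages the values were 1738, 2916 and 3536 CPM, and in monocytes 315, 433 and 628 CPM. The islet and colonic ranges met only at the lowest islet library, and no monocyte library reached any islet or colonic one. The order was islet above colonic (adjusted p = 5.43e-06, edgeR), colonic above adipose (1287 CPM, adjusted p = 0.00031), then microglia, Kupffer cells and peritoneal macrophages at 990.3, 977 and 976 CPM. Adipose and microglia did not differ beyond their spread (adjusted p = 0.248), and peritoneal macrophages lay above monocytes (adjusted p = 5.58e-05). Hsp90b1, the ER paralogue of Hsp90, had the same extremes with a narrower span: 1153 CPM in islet macrophages, above the 708 CPM of colonic ones (adjusted p = 0.0325), and 305 CPM in monocytes, below the 455 CPM of Kupffer cells (adjusted p = 0.0403). Calr, a lectin chaperone that binds calcium, averaged 640.5 CPM in islet macrophages and 277 CPM in monocytes, which lay below microglia (395 CPM, adjusted p = 0.0207).

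Dnajb9, a DnaJ co-chaperone that returns BiP to IRE1, was at 55.3 CPM in monocytes, below the 130.1 CPM of Kupffer cells (adjusted p = 4.22e-06), and at 272 CPM in adipose tissue macrophages. The other folding genes spanned less. Manf, a secreted cofactor of BiP, averaged 179 CPM in islet macrophages and 72.9 CPM in monocytes, with no called step between neighbours in its order. Sdf2l1, which keeps BiP clients from aggregating, averaged 139 CPM in peritoneal macrophages and 60.9 CPM in Kupffer cells. P4hb, the classical protein disulfide isomerase, reached 1486 ± 405 CPM in peritoneal macrophages (n = 8), with library values of 1265, 1351 and 2484 CPM as lowest, median and highest. No fasted library of another population exceeded 1151 CPM, and the next population, colonic, averaged 877 CPM (adjusted p = 5.68e-05). The peritoneal difference was 0.76 to 1.29 on the log2 scale over the 6 other populations.

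**Figure D1:**
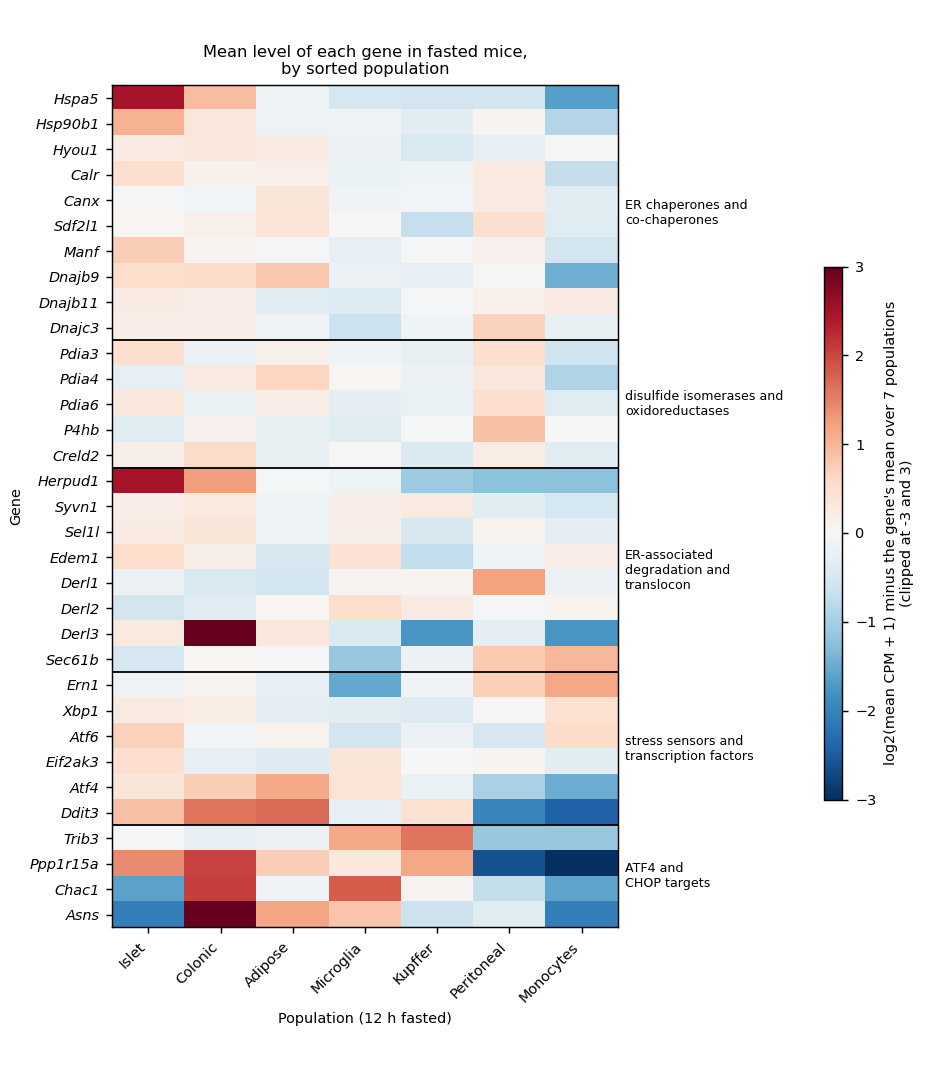
Mean level of the members in the 7 populations of fasted mice, as log2(mean CPM + 1) minus the gene's mean over the 7 populations (colour), with genes grouped by role. Islet and colonic macrophages are high for Hspa5 and Herpud1, peritoneal macrophages for Derl1 and P4hb, and peritoneal macrophages and monocytes are low for Atf4, Ddit3 and Ppp1r15a.

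Herpud1, a membrane protein that assembles the degradation complex around the ubiquitin ligase HRD1, followed the islet and colonic order. Its lowest, median and highest levels were 786, 2037 and 3175 CPM in islet macrophages, 319, 989 and 1187 CPM in colonic macrophages, and 136, 155 and 175 CPM in peritoneal macrophages. The ranges of islet and colonic libraries overlapped, and the peritoneal libraries lay under all of both. Islet exceeded colonic (adjusted p = 0.000526), colonic exceeded adipose (355 CPM, adjusted p = 4.88e-05) and microglia exceeded Kupffer cells (327 and 174 CPM, adjusted p = 0.0109), while monocytes and peritoneal macrophages did not differ beyond their spread (adjusted p = 0.979). Derl1, a channel component for proteins leaving the ER, was instead highest in peritoneal macrophages, at 508, 582 and 689 CPM, against at most 389 CPM in any fasted library of another population. Its peritoneal mean of 593 ± 65.5 CPM exceeded that of microglia (270.2 CPM, adjusted p = 1.74e-05), and the differences from the 6 other populations were 1.10 to 1.81 on the log2 scale. Sec61b, a subunit of the translocon through which proteins enter the ER, ran the other way from Hspa5. It averaged 144 CPM in monocytes and 124 CPM in peritoneal macrophages, above the 74.5 CPM of colonic macrophages (adjusted p = 0.00435 for peritoneal against colonic), with 50 CPM in islet macrophages and 32 CPM in microglia (adjusted p = 0.0379 between those 2).

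Derl3, a derlin of secretory cells, averaged 40 ± 38.6 CPM in colonic macrophages and at most 3.16 CPM elsewhere, with 0 CPM in all Kupffer libraries. Plasma cell and pancreatic acinar markers were highest in the same colonic libraries (medians of 11275 and 18067 CPM in fasted mice, against at most 110.1 and 589 CPM in the other populations), and their part in the colonic levels of Derl3 or of other members was not tested. Islet macrophages carried 589 CPM of acinar and 1191 CPM of islet endocrine markers as medians, whose part in their Hspa5 and Herpud1 levels was not tested.

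Among the sensors, the mRNA of Eif2ak3, which encodes PERK, was low in all populations (14.2 to 27 CPM) and no difference was detected (adjusted p = 0.923). Ern1, which encodes IRE1 alpha, averaged 106.4 CPM in monocytes and 78.6 CPM in peritoneal macrophages, and 15.6 CPM in microglia, below adipose tissue macrophages (39.8 CPM, adjusted p = 0.0408). Xbp1, the substrate of IRE1, varied least among the called factors, from 322 CPM in Kupffer cells to 586 CPM in monocytes (adjusted p = 8.79e-05 over populations); gene counts do not separate its spliced form. Atf6 averaged 256 CPM in islet macrophages and 107.1 CPM in microglia (adjusted p = 0.00124 over populations). Monocytes thus held high means of Ern1, Xbp1 and Atf6 beside low means of Hspa5, Dnajb9 and Hsp90b1. Per kilobase of exon, the scale on which genes can be compared, islet macrophages had 1863 CPM per kb of Hspa5, 877 of Herpud1, 432 of Pdia3, 266 of Ppp1r15a, 157 of Xbp1, 27.8 of Atf6, 5.32 of Ern1 and 4.47 of Eif2ak3.

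Of the 7 members of the PERK-ATF4 arm, Atf4, Ddit3 and Ppp1r15a had their lowest means in peritoneal macrophages and monocytes. Ppp1r15a, which encodes GADD34 and directs eIF2 dephosphorylation, had lowest, median and highest levels of 939, 1167 and 1666 CPM in colonic macrophages. The values were 19.5, 43.9 and 97.5 CPM in peritoneal macrophages and 11.1, 18.8 and 94.1 CPM in monocytes. No library of those 2 populations exceeded 97.5 CPM, whereas no islet, Kupffer, adipose or colonic library was under 292 CPM. Microglia spread widely, from 38.2 to 1088 CPM, and their mean of 364 CPM still exceeded the peritoneal 47.1 CPM (adjusted p = 1.51e-07). Ddit3, which encodes the pro-apoptotic factor CHOP, averaged 134 CPM in adipose tissue macrophages and 126 CPM in colonic ones, against 9.75 CPM in peritoneal macrophages and 6.73 CPM in monocytes, with 1 monocyte library at 0. Its step from microglia (34 CPM) to peritoneal macrophages was called (adjusted p = 0.00327). Atf4 averaged 440.0 CPM in adipose tissue macrophages, 176 CPM in Kupffer cells, 102.4 CPM in peritoneal macrophages (adjusted p = 0.0306 for Kupffer against peritoneal) and 70.7 CPM in monocytes. Of the remaining targets, Asns (asparagine synthetase) averaged 34.3 CPM in colonic macrophages, 8.47 CPM in adipose tissue macrophages, 6.39 CPM in microglia and at most 2.24 CPM elsewhere. Chac1 (a glutathione-degrading enzyme) averaged 11.8 CPM in colonic macrophages, 9.6 CPM in microglia and at most 2.22 CPM elsewhere, and Trib3, a pseudokinase that feeds back on ATF4, stayed at or under 10.4 CPM.

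**Figure D2:**
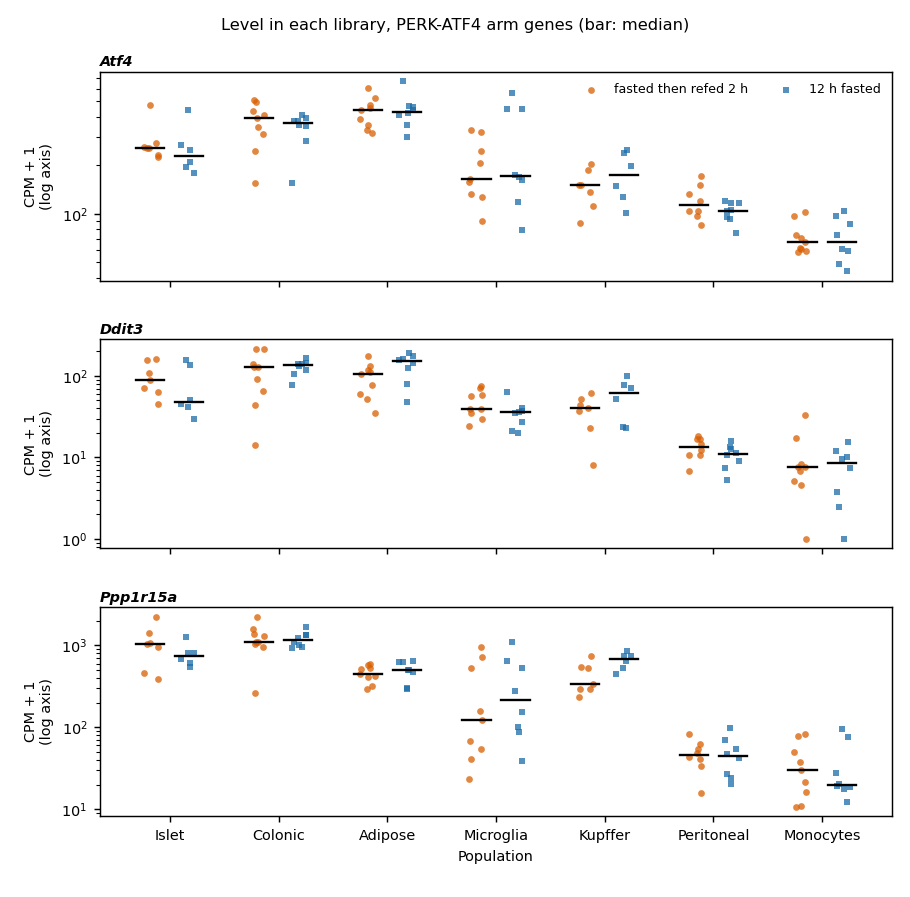
Level of Atf4, Ddit3 and Ppp1r15a in every library of the refeeding experiment, as CPM + 1 on a log axis, refed libraries left of fasted ones in each population, with a bar at the median. The 3 genes are lowest in peritoneal macrophages and monocytes, and refed and fasted libraries overlap in every population.

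Called members between pairs of populations numbered at most 18 of 33. Adipose tissue macrophages differed from monocytes in 18 members, 15 of them higher in adipose, where 16.7% of all genes were called. Microglia also differed from monocytes in 18 members, 14 higher in microglia, where 25.5% of genes were called. Peritoneal and colonic macrophages each exceeded monocytes in 14 members and lay below them in 1 (14.7% and 20.3% of genes called).

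Refeeding asked how the members respond to 2 h of food after the fast. In peritoneal macrophages, refeeding raised 2 members, Herpud1 and Creld2, and most other members of the ATF6 arm had higher levels in refed mice without passing the test. Of the 11331 genes tested there, 49 were called (0.432%), 37 of them higher in refed mice (0.327%), and 2 of the 31 members tested (Trib3 and Chac1 were too low) were among them. Herpud1 (ENSMUSG00000031770.16, chr8:94386438-94395377, plus strand, mm10) had lowest, median and highest levels of 188, 251 and 387 CPM in refed mice, against 136, 155 and 175 CPM in fasted mice. Every refed library lay above every fasted one, as 0.221% of genes did. The difference was 0.75 ± 0.11 on the log2 scale (SE, adjusted p = 0.00978, edgeR). Creld2, an ER protein with disulfide isomerase activity (ENSMUSG00000023272.3, chr15:88819646-88826683, plus strand), had 55.2, 224 and 271 CPM in refed mice, against 44.7, 73.8 and 113.9 CPM in fasted mice. All refed libraries but 1 exceeded the highest fasted one, and the difference was 1.34 ± 0.26 (adjusted p = 0.0303).

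The next members by p in peritoneal macrophages missed the threshold. Xbp1 of the IRE1-XBP1 arm, described below, came after Manf and before Hyou1 and Sdf2l1. Hspa5 had 806, 1875 and 3261 CPM in refed mice, against 736, 886 and 1606 CPM in fasted mice (0.94 ± 0.20, adjusted p = 0.0546), and 5 of 8 refed libraries exceeded the highest fasted one. Manf had 89.5, 199.7 and 334 CPM in refed mice, against 93.5, 112.7 and 175 CPM in fasted mice (0.85 ± 0.21, adjusted p = 0.0822). Sdf2l1 had 174, 246 and 315 CPM in refed mice, against 84.8, 132 and 285 CPM in fasted mice (0.81 ± 0.23, adjusted p = 0.132), and Hyou1, a nucleotide exchange factor of BiP, had 59.2, 104.2 and 139 CPM against 17, 40.2 and 92.7 CPM (1.06 ± 0.29, adjusted p = 0.122). One refed library, replicate 6, had the lowest refed Hspa5 (806 CPM), Creld2 (55.2 CPM), Manf (89.5 CPM) and Hyou1 (59.2 CPM), although its Herpud1 was 212 CPM. Within each of the 4 cohorts the refed mean was above the fasted mean for Hspa5 (log2 differences 0.46 to 1.62), Hyou1 (0.16 to 1.73), Sdf2l1 (0.30 to 1.59), Manf (0.35 to 1.36), Creld2 (0.85 to 1.66) and Herpud1 (0.54 to 1.24).

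**Figure D3:**
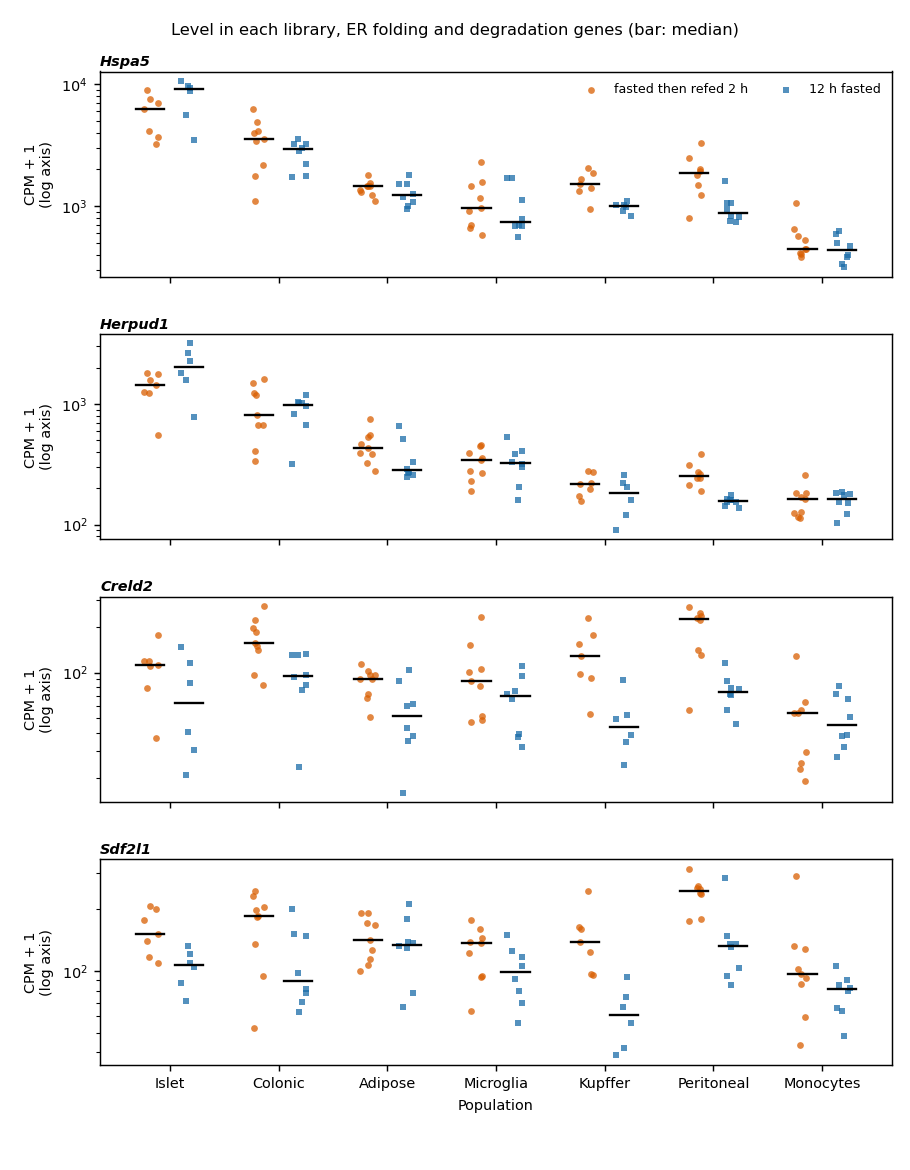
Level of Hspa5, Herpud1, Creld2 and Sdf2l1 in every library of the refeeding experiment, as CPM + 1 on a log axis, refed libraries left of fasted ones in each population, with a bar at the median. In peritoneal macrophages all refed Herpud1 values (188 CPM and above) exceed all fasted ones (175 CPM and below), and in Kupffer cells all refed Sdf2l1 values exceed all fasted ones.

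Over the whole set in peritoneal macrophages, 25 of 31 members were higher in refed mice (80.6%, against 49.6% of all genes), with a median log2 difference of 0.34 against 0.00 for all genes. At an unadjusted p below 0.05, 12 members were higher and 1 lower, where 6.06% of genes were higher and 4.92% lower. The ATF6 arm had 11 of 12 members higher with a median of 0.63, and 8 of them had p below 0.05. The IRE1-XBP1 arm had 7 of 11 higher with a median of 0.33, and the PERK-ATF4 arm 4 of 5 with a median of 0.21 and none with p below 0.05. The sensors differed in direction: Ern1 had 37.6, 53 and 89.3 CPM in refed mice, against 57.5, 77.9 and 98.4 CPM in fasted mice (-0.57 ± 0.16, adjusted p = 0.149), and Xbp1 406, 566 and 694 CPM against 366, 435 and 484 CPM (0.33 ± 0.08, adjusted p = 0.1). The number of called members depended on the settings and on single libraries. It was 8 with DESeq2 (7 higher, and Ern1 lower; 2.99% of genes called), 8 without the filter on low counts (1.32%), 5 with voom and quality weights (0.865%) and 0 with the replicate number as a block (0% of genes), where Creld2 was at 1.21 and Herpud1 at 0.72 with an adjusted p of 0.159 each. Leaving out 1 library gave 8 without fasted replicate 1, 5 without refed replicate 6, 4 without refed replicate 1, 2 without fasted replicate 5 or refed replicate 7, and 1 (Herpud1) without any 1 of the other 11.

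Kupffer cells, the macrophages of the liver, had higher levels of Sdf2l1, Creld2, Hspa5 and Pdia4 in refed mice, but no member passed the test. By edgeR 0 of 11635 genes were called (0%), and 0 of the 30 members tested (Derl3, Chac1 and Asns were too low). At an unadjusted p below 0.05, 14 members were higher and 1 lower in refed mice, where 1.52% of genes were higher and 1.74% lower. Over all 30, 23 were higher in refed mice, against 46.8% of all genes. Sdf2l1 had 95, 137 and 244 CPM in refed mice, against 37.7, 60.1 and 92.5 CPM in fasted mice, and every refed library lay above every fasted one, as 0.0859% of genes did. Its difference was 1.28 ± 0.27 (adjusted p = 0.788). Creld2 had 52.1, 127 and 229 CPM in refed mice, against 23.4, 42.8 and 87.6 CPM in fasted mice, and 6 of 7 refed libraries exceeded the highest fasted one (1.56 ± 0.35, adjusted p = 0.788). Hspa5 had 948, 1532 and 2067 CPM against 838, 998 and 1094 CPM, again with 6 of 7 above (0.69 ± 0.17, adjusted p = 0.993). Pdia4, a disulfide isomerase, had 179.8, 215 and 368 CPM in refed mice, against 95.6, 156 and 217 CPM in fasted mice (0.78 ± 0.20, adjusted p = 0.993). The member lower in refed mice was Ppp1r15a, with 231, 332 and 742 CPM against 441, 684 and 859 CPM in fasted mice (-0.64 ± 0.22, adjusted p = 1, edgeR).

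In Kupffer cells, unlike peritoneal macrophages, the arms stood apart in direction, although no test between arms was run. Of the ATF6 arm, 11 of 12 members were higher after refeeding (median 0.66), and of the IRE1-XBP1 arm 8 of 10 with a median of 0.36. In the PERK-ATF4 arm 1 of 5 was higher, with a median of -0.53; the median of all genes was -0.04. In all 3 cohorts with both groups, the refed mean was higher for Hspa5 (0.33 to 0.91), Sdf2l1 (1.06 to 1.38) and Creld2 (1.17 to 1.82). DESeq2 called 4 members, Creld2, Hspa5, Pdia6 and Sdf2l1 (0.584% of genes), and edgeR without the count filter called 1, Creld2 (0.162% of genes). Endothelial and stellate cell markers summed to 862, 1467 and 3789 CPM in refed mice as lowest, median and highest, against 1718, 2546 and 3925 CPM in fasted mice, and their part in these differences was not tested. Without the 2 refed libraries richest in other-cell markers (replicates 1 and 3), Sdf2l1 was at 1.41, Creld2 at 1.72 and Hspa5 at 0.73. No fasted library was left out in that fit, although fasted replicate 2 had the highest endothelial and stellate sum of either group (3925 CPM).

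The 5 other populations had no called gene with refeeding by edgeR (0% of 10059 to 11856 genes), and DESeq2 and voom also called 0 members in each. In colonic macrophages, 26 of 33 members had a higher refed level, as 50% of all genes did, with a member median of 0.26, and 7 had p below 0.05, all higher (1.32% of genes were higher at that level). Manf had 107.1, 160.3 and 246 CPM in refed mice, against 86.7, 109.4 and 145 CPM in fasted mice (0.58 ± 0.17), and Creld2 had 81.9, 157 and 274 CPM against 22.8, 93.3 and 132 CPM (0.86 ± 0.26). For Manf 8 of 9 refed libraries exceeded the highest fasted one, and for Creld2 7 of 9. Derl1 had 188, 235 and 311 CPM in refed mice, against 118.7, 182 and 236 CPM in fasted mice (0.35 ± 0.14), and Pdia6, another disulfide isomerase, 201, 346 and 497 CPM against 162, 233 and 435 CPM (0.51 ± 0.21). Plasma cell markers also had the higher median in refed colonic libraries (31 to 163819 CPM, against 35.9 to 92485 CPM in fasted mice). Without the 5 colonic libraries above 50000 CPM of plasma or acinar markers, the differences were 0.58 for Manf, 0.67 for Creld2, 0.36 for Derl1 and 0.32 for Pdia6.

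In microglia, 25 of 30 members had a higher refed level, as 49.8% of all genes did, with a member median of 0.21, and 4 had p below 0.05, all higher (1.35% of genes). Pdia6 had 186, 358 and 426 CPM in refed mice, against 189, 236 and 293 CPM in fasted mice (0.50 ± 0.18), with 7 of 9 refed libraries above the highest fasted one and 1 below the lowest. Dnajb11, a co-chaperone of BiP, had 88.6, 129.7 and 198 CPM against 35.5, 91.1 and 138 CPM (0.58 ± 0.23), Manf 83.7, 137 and 163 CPM against 73.7, 87.2 and 119.3 CPM (0.45 ± 0.19), and Xbp1 281, 436 and 522 CPM against 229, 329 and 479.8 CPM (0.33 ± 0.15). The groups overlapped for each of these. Without refed replicates 5 and 6, which had the highest neutrophil and lymphoid marker sums, the 4 differences were 0.67, 0.64, 0.55 and 0.44 in that order.

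Islet macrophages, where Hspa5 and Herpud1 were highest, were the population with lower values of both after refeeding. Herpud1 had 554, 1431 and 1822 CPM in refed mice, against 786, 2037 and 3175 CPM in fasted mice (-0.59 ± 0.16, adjusted p = 1, edgeR), and the refed mean was lower in all 4 cohorts (-0.76 to -0.43). Hspa5 had 3202, 6232 and 8951 CPM in refed mice, against 3498, 9016 and 10604 CPM in fasted mice (-0.38). Sdf2l1 was higher in refed mice, with 108.4, 149.9 and 207 CPM against 70.5, 106.1 and 131 CPM (0.60 ± 0.21), and so were Dnajb11, with 126, 203 and 279 CPM against 69.9, 147 and 184 CPM (0.51 ± 0.19), and Pdia4, with 134, 173 and 286 CPM against 87.1, 138 and 216 CPM (0.43 ± 0.20). Refed and fasted libraries overlapped for all 5. Of 31 members 17 were higher (52.9% of all genes), with a median of 0.07; 2 were higher and 1 lower at p below 0.05 (1.38% and 1.03% of genes). Without the count filter edgeR called 2 members (0.0376% of genes), Herpud1 (-0.57, adjusted p = 0.0387) and Hspa5, both lower. Islet endocrine markers summed to a median of 1878 CPM in refed and 1191 CPM in fasted mice, and their part was not tested.

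In adipose tissue macrophages, 17 of 29 members had a higher level after refeeding (49.8% of all genes), with a median of 0.07 and 2 at p below 0.05, both higher (3.19% of genes). These were Creld2, with 49.7, 89.7 and 113.4 CPM in refed mice, against 15, 50.5 and 103.4 CPM in fasted mice (0.77 ± 0.27), and Calr, with 519, 613 and 812 CPM against 371, 476 and 739.8 CPM (0.31 ± 0.14). Pdia6 (0.24 ± 0.12) and Herpud1 (0.39 ± 0.21) followed. In blood monocytes, 21 of 29 members were higher (48.2% of all genes) with a median of 0.13, and 2 had p below 0.05, both higher (1.28% of genes). Pdia6 had 180.3, 309 and 459 CPM in refed mice, against 177, 202 and 312 CPM in fasted mice (0.43 ± 0.17). Eif2ak3 had 15.2, 35.4 and 55.7 CPM against 0.0592, 15.4 and 27.5 CPM (1.48 ± 0.64), a low-count gene whose exons overlap an antisense gene, and Calr (0.37 ± 0.18) and Edem1 (0.47 ± 0.23), which extracts misfolded glycoproteins, came next. All groups overlapped.

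**Figure D4:**
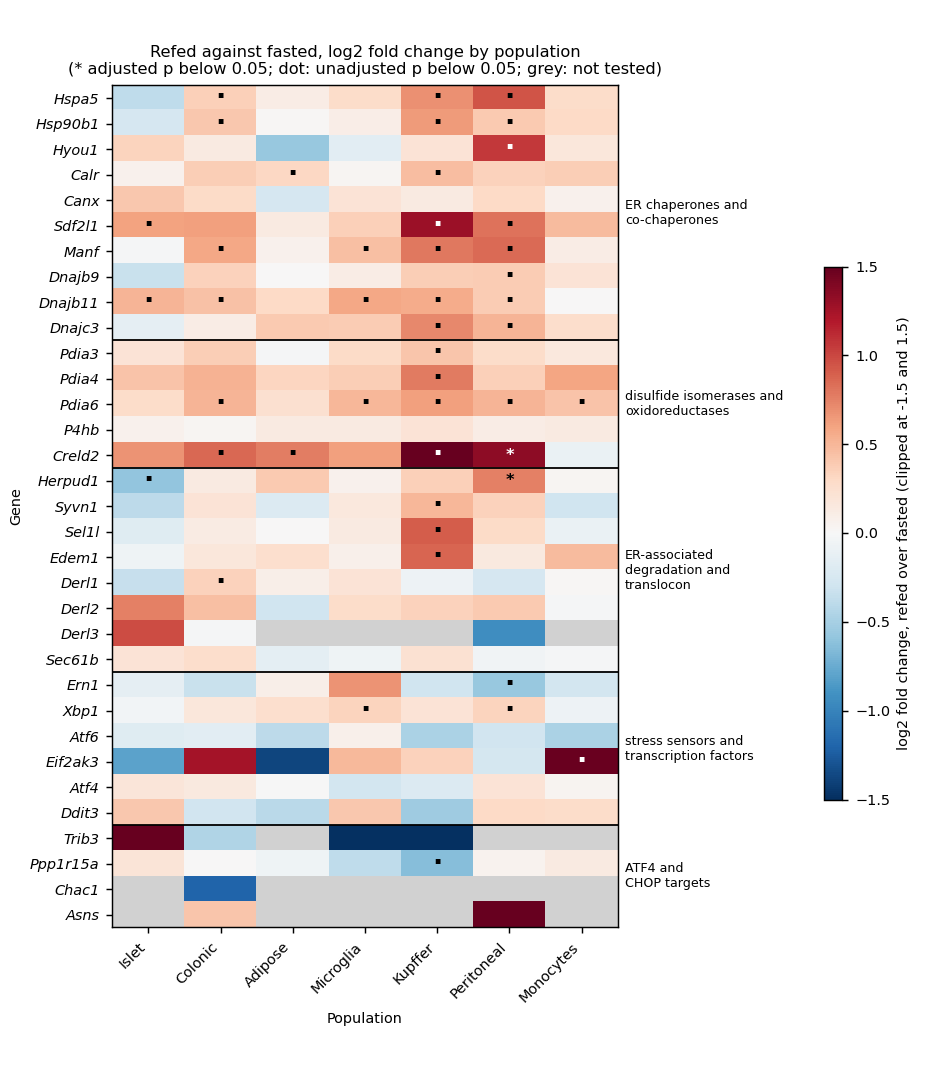
Log2 difference of refed against fasted mice for each member (rows, grouped by role) and population (columns); colour gives direction and size, a star an adjusted p below 0.05, a dot an unadjusted p below 0.05, and grey a member not tested. ATF6-arm genes are higher in refed peritoneal macrophages and Kupffer cells in 11 of 12 cases each, and islet macrophages have lower Herpud1 and Hspa5.

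Across the 7 populations, 6 members (Calr, Sdf2l1, Dnajb11, Pdia4, Pdia6 and P4hb) had no negative refed difference in any. The ranges were 0.32 to 0.78 for Pdia4, 0.24 to 0.61 for Pdia6 and 0.14 to 1.28 for Sdf2l1. They reached down to about 0 for Dnajb11 (0.00 to 0.58), Calr (0.03 to 0.46) and P4hb (0.03 to 0.20). The share of all genes with 1 direction in all 7 populations is not given here, so this count is not read as a result about the members. The sensors had no such common direction: Atf6 was higher in 1 of 7 (-0.48 to 0.08), Ern1 in 2 (-0.57 to 0.67), Atf4, Ddit3 and Eif2ak3 in 4 each (-0.27 to 0.21, -0.53 to 0.41 and -1.38 to 1.48) and Xbp1 in 5 (-0.08 to 0.33). Whether refeeding differed among populations was tested directly: 0 members were called, with 8 at p below 0.05, where 0.0268% of 18640 genes were called and 7.48% had p below 0.05. The smallest adjusted p values were 0.277 for Derl3, 0.326 for Hspa5 and 0.359 for Herpud1. The islet effect minus the mean of the other 6 was -0.86 ± 0.24 for Herpud1 (adjusted p = 0.257) and -0.82 ± 0.23 for Hspa5 (adjusted p = 0.326), where 0.0268% of genes were called, and the peritoneal one was 0.70 ± 0.22 for Herpud1 (adjusted p = 0.788) and 0.73 ± 0.22 for Hspa5 (adjusted p = 0.602), where 0.0215% were. Voom with quality weights called 3 (Hsp90b1, Hspa5 and Manf; 2.89% of genes) and edgeR without the count filter 3 (Asns, Derl3 and Hspa5; 2.46%).

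A mean refeeding effect over populations, added after the data had been seen, was fitted with limma on log2(CPM + 1) values averaged over the populations of each replicate number. Islet libraries numbered 1_2 and 5_6, refed and fasted, were left out, so islet cohorts 1 and 3 did not enter. The labels do not say whether libraries of the same number came from 1 animal. The fit called 4 of 8279 genes (0.0483%) and 0 of 29 members. Of those members 26 had a higher refed level (48.4% of all genes), 11 had p below 0.05, all of them higher (4.7% of genes), and the median was 0.21 against -0.01 for all genes. The first by p were Creld2 (0.73 ± 0.17), Pdia6 (0.44 ± 0.10) and Sdf2l1 (0.59 ± 0.14), each with an adjusted p of 0.183, and Manf (0.42, adjusted p = 0.272).

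Another 94 genes of the pathway were listed from general knowledge, with earlier results of these data known. Of the 88 tested in peritoneal macrophages 0 were called by edgeR (0.432% of all genes were). There 67 had a higher refed level (49.6% of all genes), with a median of 0.15. At p below 0.05, 15 were higher and 1 lower (6.06% and 4.92% of all genes). The first were Eif2s1, the subunit of eIF2 that PERK phosphorylates (0.54 ± 0.11, adjusted p = 0.0511), Serp1, a translocon partner (0.33 ± 0.08, adjusted p = 0.0848), and Selenos, a selenoprotein of ER-associated degradation (0.48 ± 0.12, adjusted p = 0.0991). Of the 15 other degradation genes 13 were higher with a median of 0.26, and of the 20 other folding genes 12 with a median of 0.04. In Kupffer cells 48 of 86 tested were higher (46.8% of all genes), with a median of 0.06 against 0.37 over the 30 members tested. Of the 86, 3 had p below 0.05, all higher (1.52% of all genes were higher at that level).

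The diet experiment asked how the members respond to 8 weeks of high-fat diet with or without the ablation of beta cells. No member passed edgeR's test in any of the 9 comparisons (3 populations, 3 pairs of diets), which share libraries and so are not independent of each other. Voom with quality weights also called 0, and DESeq2 and the fit without the count filter called Derl1 or Trib3 as given below. The clearest differences were in peritoneal macrophages of mice given high-fat diet and STZ, against normal diet. There 1.29% of 13225 genes were called and 0 members, while 0% of genes were called in the 8 other diet comparisons; 9 of 31 members were higher (49.2% of all genes) with a median of -0.12 (all genes -0.01), and 0 were higher and 6 lower at p below 0.05, where 9.86% of genes were higher and 9.78% lower. By arm, 1 of 11 members was higher in the IRE1-XBP1 arm, 6 of 12 in the ATF6 arm and 1 of 5 in the PERK-ATF4 arm.

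Derl1, one of the members that were highest in fasted peritoneal macrophages, had 588, 543, 326, 387 and 226 CPM in the 5 libraries of high-fat diet with STZ. It had 546, 540.4, 574 and 591 CPM with high-fat diet alone and 595, 651, 783, 656 and 595 CPM with normal diet. All STZ libraries lay below all normal-diet ones, as 1.97% of genes did. All high-fat libraries also lay below all normal-diet ones, by less (-0.23 ± 0.24 in the fit; 0.968% of genes), and 3 STZ libraries lay below every high-fat one. The difference from normal diet was -0.72 ± 0.23 (adjusted p = 0.127, edgeR) and that from high-fat diet -0.49 ± 0.24 (adjusted p = 0.665). The summed level of the peritoneal macrophage marker list was 22796, 21537, 13009, 15872 and 10068 CPM in the same 5 libraries, lowest where Derl1 was lowest, against 20868 to 21712 CPM with high-fat diet and 18452 to 22996 CPM with normal diet. Its part in the Derl1 difference was not tested.

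Manf had 71.5, 60.9, 93.6, 125 and 128 CPM with STZ, against 105.6, 104.3, 252, 151 and 127 CPM with normal diet (-0.60 ± 0.20, adjusted p = 0.145). Xbp1 had 378, 324, 341, 359 and 359 CPM with STZ, against 388, 359, 672, 489 and 453 CPM with normal diet (-0.40 ± 0.16, adjusted p = 0.208), and Sdf2l1 had 175, 182, 175, 213 and 182 CPM, against 209, 206, 513, 242 and 222 CPM (-0.50 ± 0.20, adjusted p = 0.211). Normal-diet replicate 3 was the highest library for all 4 genes. Its general macrophage markers summed to 2339 CPM, against 5854 to 6485 CPM in the other normal-diet libraries, and its part was not tested. Without it the differences were -0.56 for Derl1 (adjusted p = 0.237), -0.38 for Manf (0.179), -0.24 for Xbp1 (0.202) and -0.22 for Sdf2l1 (0.161). DESeq2 (7.21% of genes called) and edgeR without the count filter (2.68%) each called 1 member, Derl1, at -0.73 (adjusted p = 0.0269) and -0.71 (adjusted p = 0.0271). Of the 90 other pathway genes tested with STZ against normal diet, 38 were higher (49.2% of all genes) with a median of -0.06, and 1 was called (1.29% of all genes). Fkbp11, a peptidyl-prolyl isomerase of secretory cells, was lower by 1.25 on the log2 scale with STZ (SE 0.27, adjusted p = 0.0419, edgeR). Its difference without normal-diet replicate 3 is not given here. The part of that library, or of RNA of other cells, in the Fkbp11 difference was not tested. Next were Sesn2, a sestrin induced by ATF4 (0.80 ± 0.19, adjusted p = 0.0578), and Ssr4, a subunit of the translocon-associated complex (-0.79 ± 0.21, adjusted p = 0.0823).

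**Figure D5:**
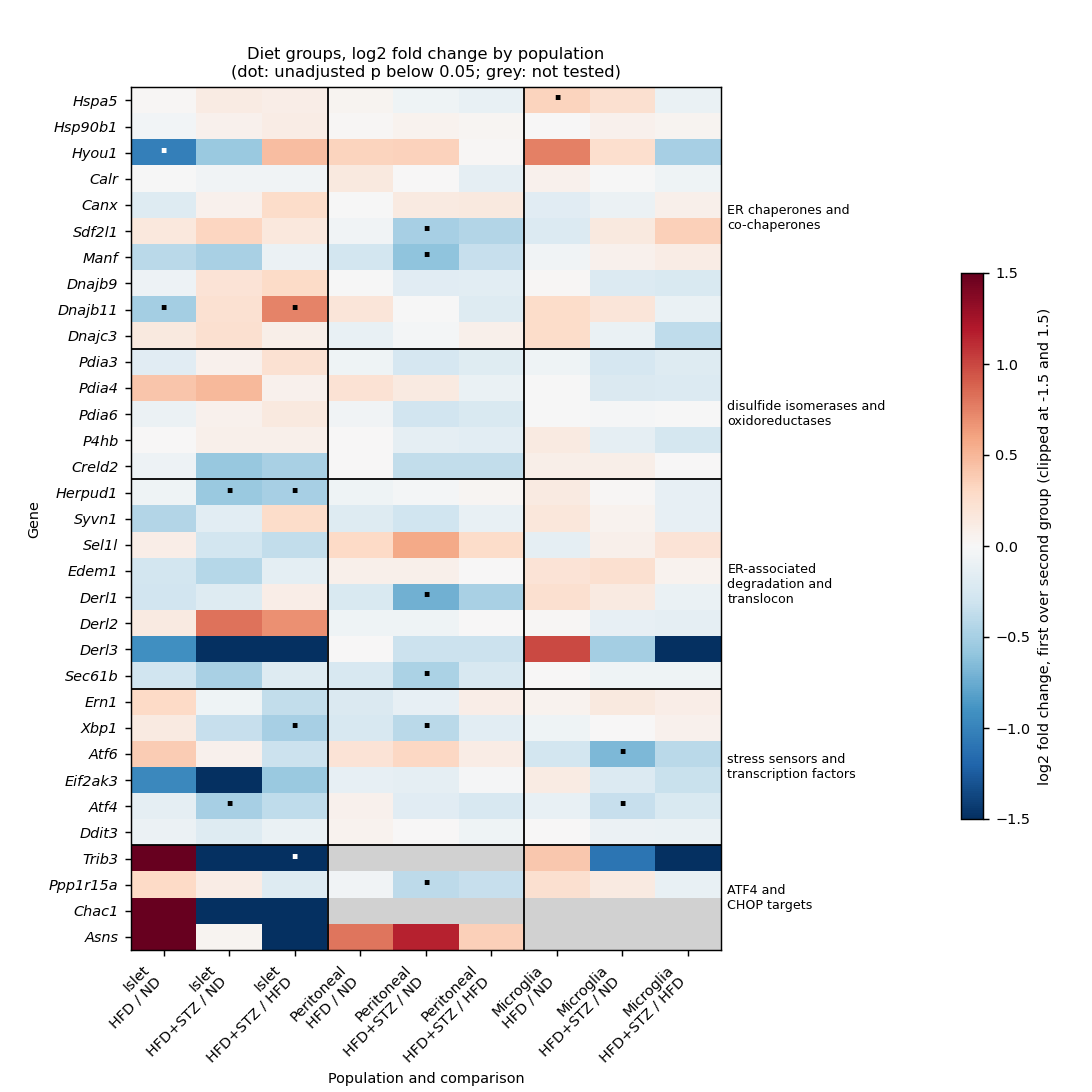
Log2 difference for each member in the 9 diet comparisons, with the diet named first over the diet named second (columns) and members grouped by role (rows); colour gives direction and size, a dot an unadjusted p below 0.05, and grey a member not tested. In peritoneal macrophages with high-fat diet and STZ against normal diet, 10 of 11 IRE1-XBP1-arm genes are lower, and in islet macrophages with high-fat diet and STZ against high-fat diet 7 of 7 PERK-ATF4-arm genes are lower.

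The other peritoneal comparisons held less. With STZ against high-fat diet alone, no member had p below 0.05 (8.08% of genes did), and the first were Sdf2l1 (high-fat diet 236, 211, 255 and 243 CPM; -0.44 ± 0.21), Derl1 and Creld2. Creld2 had 93, 76.6, 100.1, 91.8 and 111.6 CPM with STZ, against 148, 85.2, 108.5 and 121 CPM with high-fat diet (-0.37 ± 0.19), and Ppp1r15a 16.7, 16.6, 19.6, 13.5 and 16 CPM against 18.2, 16.3, 15.6 and 32.6 CPM (-0.35 ± 0.20). With high-fat diet against normal diet no member had p below 0.05 either (3.54% of genes). The first were Hyou1, with 62.6, 44.7, 56 and 69.8 CPM against 49.9, 35.2, 18.7, 64.2 and 55.7 CPM (0.33 ± 0.23), Pdia4 (0.22 ± 0.17), Xbp1 (-0.24 ± 0.18) and Asns (0.80 ± 0.66, under 5 CPM in all 9 libraries).

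In islet macrophages, the median log2 difference over all 12406 genes was 0.13 for high-fat against normal diet, -0.15 for STZ against normal diet and -0.29 for STZ against high-fat diet. Members' differences are to be read against those. Hyou1 had 34.1, 70.6, 51 and 36.2 CPM with high-fat diet, against 112.5, 88, 85 and 80.8 CPM with normal diet, with no overlap (0.701% of genes; -1.02 ± 0.34, adjusted p = 1, edgeR). Dnajb11 had 107.9, 200.2, 108.6 and 91.4 CPM against 196, 190.0, 127 and 176 CPM (-0.51 ± 0.22), Manf 205, 149, 125 and 147 CPM against 201, 220.1, 225 and 167 CPM (-0.41 ± 0.21), and Syvn1, the ubiquitin ligase HRD1, 118.6, 177, 115.1 and 167 CPM against 120.0, 189, 266 and 219 CPM (-0.44 ± 0.23). At p below 0.05, 0 members were higher and 2 lower (1.75% and 0.669% of genes).

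With STZ and high-fat diet, islet macrophages had 511, 522 and 530.3 CPM of Xbp1, against 708, 745, 615 and 793 CPM with high-fat diet alone, with no overlap (5.01% of genes; -0.50 ± 0.16, adjusted p = 0.956, edgeR). Dnajb11 was higher, at 272, 164 and 186 CPM with STZ against 107.9, 200.2, 108.6 and 91.4 CPM with high-fat diet (0.74 ± 0.24). Herpud1 had 875, 773 and 802 CPM with STZ, against 462, 1209.6, 1024 and 1389 CPM with high-fat diet (-0.50 ± 0.18) and 564, 852, 1144 and 1545 CPM with normal diet (-0.56 ± 0.18), and the STZ libraries lay inside both ranges. Trib3 was at 0 CPM in all 3 STZ libraries, and at 0, 4.52, 10.5 and 25.6 CPM with high-fat diet and 7.09, 0.21, 0 and 8.28 CPM with normal diet. DESeq2 called Trib3 in both comparisons (3.01% of genes against high-fat diet, 4.79% against normal diet), and edgeR in neither. With no count in the STZ group, its DESeq2 log2 difference from high-fat diet was -24.56, which is no measure of effect size. The PERK-ATF4 arm had 0 of 7 members higher with STZ than with high-fat diet (37.2% of all genes; median -0.56). Atf4 had 172, 175 and 179 CPM with STZ, against 158, 245, 259 and 226 CPM with normal diet (-0.50 ± 0.21), and Manf had 146, 154 and 119.8 CPM against 201, 220.1, 225 and 167 CPM, with no overlap (3.23% of genes; -0.49 ± 0.23). At p below 0.05 there were 1 member higher and 3 lower against high-fat diet (1.46% and 3.53% of genes) and 0 higher and 2 lower against normal diet (2.6% and 3.06%). Islet endocrine markers summed to 1838 to 3588 CPM with STZ, 3451 to 6201 CPM with high-fat diet and 1876 to 6099 CPM with normal diet, and their part was not tested. Plasma cell markers summed to 0.462 to 35.4 CPM with STZ, to 13534 CPM in replicate 5 of high-fat diet and to 7103 CPM in replicate 5 of normal diet, with at most 27.1 CPM in the other libraries. Those 2 libraries had the highest Xbp1 (793 and 802 CPM), Herpud1 (1389 and 1545 CPM) and Derl3 (24.9 and 85.7 CPM) of their groups. Without replicate 5 of high-fat diet, the differences of STZ from high-fat diet were -0.52 for Xbp1 and -0.47 for Herpud1, and without replicate 5 of normal diet Herpud1 differed from normal diet by -0.45.

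In microglia, high-fat diet gave 4136, 3965, 2613 and 3519 CPM of Hspa5, against 2609, 3269, 2712 and 2369 CPM with normal diet (0.33 ± 0.11, adjusted p = 1, edgeR), and 3 of 4 libraries exceeded the highest normal-diet one. It was the 1 member at p below 0.05 (1.08% of genes were higher at that level). Derl1 (0.24 ± 0.11), Ppp1r15a (0.24 ± 0.12) and Dnajb11 (0.27 ± 0.17) followed, and 10 of 11 members of the IRE1-XBP1 arm were higher (53.8% of all genes), with a median of 0.17. With STZ, Atf6 had 39.2, 71.9, 53.9 and 65.8 CPM, against 61.1, 53.4, 114.6 and 74.6 CPM with normal diet (-0.67 ± 0.29), and Atf4 had 323, 263, 298 and 249 CPM against 317, 413, 353 and 374 CPM (-0.34 ± 0.15); the groups overlapped for both (1.47% of genes were lower at p below 0.05). Hspa5 (0.24 ± 0.12) and Pdia3 (-0.25 ± 0.13) came next. With STZ against high-fat diet no member had p below 0.05 (4.77% of genes), and the first were P4hb (-0.26 ± 0.15), Sdf2l1 (0.36 ± 0.21), Atf4 (-0.23 ± 0.15) and Pdia3 (-0.19 ± 0.13). STZ replicate 9 is the only library of its cohort and was fitted exactly, so it adds nothing to these differences.

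Of the sensors over the 9 diet comparisons, Ddit3 moved least (-0.19 to 0.05) and Eif2ak3 most (-1.54 to 0.12, p of 0.219 or more in each). Ern1 lay between -0.37 and 0.30 with no p below 0.05. Whether diet effects differed among the 3 populations was tested for each pair of diets. Microglia shared no cohort with the islet and peritoneal libraries, and the number of cells per library differed among all 3 populations. Microglia therefore cannot be told apart from their cohorts in these tests, nor population from cell number. Of 17230 genes 0.325%, 0.754% and 0.708% were called for high-fat against normal diet, STZ against normal diet and STZ against high-fat diet, and 0 members in each, with 1, 1 and 2 at p below 0.05 (7.76%, 11.1% and 11.2% of genes).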

How the data were processed

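The deposited tables hold whole-number read counts per gene that the authors made from polyA RNA extracted with PicoPure columns and amplified by Smart-seq2, per the labels' protocols. Trimmomatic 0.36, STAR 2.5.1a, featureCounts and the build mm10 are named in the submitters' processing notes; neither annotation release nor strand setting is named in the sources used here. Symbols were matched to 50376 of 50686 identifiers with the version dropped (45737 with it), and identifiers without a symbol held 0.0438% of counts. The 11 members whose exons overlap another gene (among them Manf, Hsp90b1, Pdia6, Ddit3 and Ppp1r15a) could share reads with it. No column of per-sample values was left unused (0).

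Levels are CPM on TMM-scaled library sizes, 1 scale per experiment, so levels are not compared between experiments. Tests used edgeR 4.0.16 in R 4.3.3 (filterByExpr, TMM, robust quasi-likelihood, cohort as a term, Benjamini-Hochberg over all tested genes, threshold 0.05); the diet fits hold the 3 diet groups of a population. Fits over all populations took the dispersion trend from 2000 genes. Alternatives used DESeq2 1.42.0, limma 3.58.1 (voom with quality weights, capped at percentile 99 in fits over populations), RLE scaling, no count filter, the replicate block and leaving out libraries. The scripts were tested on simulated data. The members and lists were chosen with earlier results of these data known. The text names called members and, where there were fewer than 4, those with the smallest p until 4 were named, plus the sensors and called pathway genes. All 94 pathway genes and 125 marker genes matched.

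The median SE of members was 0.18 to 0.26 on the log2 scale over the diet comparisons, and its relation to depth was not tested. Whether same-numbered refed and fasted libraries are paired was not settled. Correlations of same-numbered deviations exceeded 0.1 in all pairs in no population (0 of 7 in peritoneal macrophages, -0.08 to 0.10). In islet macrophages they were 0.04 to 0.13, and 5 of 6 numbers correlated best with their own. Diet libraries that share a cohort varied. The correlations were 0.01 to 0.08 in islet macrophages with STZ against normal diet and -0.22 to 0.22 in peritoneal macrophages with the same diets. They were 0.20 to 0.58 in peritoneal macrophages with STZ against high-fat diet, where 4 of 4 numbers correlated best with their own. In islet and peritoneal diet libraries the number is the cohort, which the fit holds as a term.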

Additional observations from a re-analysis of the deposited data

Results flagged for a closer look

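Each member named in the text was looked at in its groups of 4 to 9 libraries, 120 looks in all. In 10 items 1 library stood far from the others. Chance flags about 1 in 20 independent looks, but these looks share libraries and some repeat a gene and group. The 10 of 120 is therefore not set against it. In the refeeding experiment, Hspa5 was 1606 CPM in fasted peritoneal replicate 1 (next 1071 CPM), Xbp1 was 281 CPM in refed microglia replicate 6 (next 411 CPM), Pdia6 was 435 CPM in fasted colonic replicate 7 (next 284 CPM) and Calr was 572 CPM in refed monocyte replicate 4 (next 400.5 CPM). Leaving out fasted peritoneal replicate 1 raised the number of called members there to 8, from the 2 reported. In the diet experiment, Dnajb11 was 200.2 CPM in islet replicate 3 of high-fat diet (next 108.6 CPM), the library that put 1 high-fat value above the normal-diet range.

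Peritoneal normal-diet replicate 3 stood apart for Sdf2l1 at 513 CPM (next 242 CPM) and for Asns at 4.8 CPM (next 1.5 CPM), and it is the library with the low general macrophage markers. In the same population, Sdf2l1 was 213 CPM in replicate 4 of high-fat diet with STZ (next 182 CPM) and Ppp1r15a was 32.6 CPM in replicate 5 of high-fat diet (next 18.2 CPM). P4hb was 658 CPM in microglia replicate 13 of high-fat diet with STZ (next 560.4 CPM).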

How the results depend on the processing

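For peritoneal macrophages with refeeding, 2 members were called as reported, 8 without the count filter, 8 with DESeq2, 5 with voom, 0 with the replicate block and 1 without fasted replicate 4, the library richest in acinar markers; leaving out 1 library gave 1 to 8. The labels name no animal shared by refed and fasted libraries of the same number, so the loss of calls under the block is no measure of effect size. Of the numbers, 2 of 7 in peritoneal macrophages and 5 of 6 in islet macrophages correlated best with their own. In Kupffer cells the count of 0 became 1 without the filter and 4 with DESeq2, and in islet macrophages with refeeding 2 without the filter. In the diet comparisons DESeq2 called 1 member in islet macrophages with STZ against normal diet and 1 against high-fat diet. In peritoneal macrophages with STZ against normal diet, 1 was called without the filter and 1 with DESeq2. For the difference in refeeding effect among populations, 3 members were called without the filter and 3 with voom. The cause of these differences was not tested. The count of 25 members that differ among populations was 23 to 30 under other settings (26 with RLE scaling, 27 with the replicate block). No named value changed sign: of the alternatives for named members, 870 kept direction and side of the threshold, 20 passed it and 14 lost it. Leaving out 1 library gave 0 called members in Kupffer cells and in each of the 9 diet comparisons. DESeq2 was not run for tests over populations. Diet differences as large as -1.02 ± 0.34 (Hyou1 in islet macrophages, high-fat against normal diet) were not called at this number of libraries.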

Other observations

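Some members separated the diet groups library by library with small differences in the fit, and were picked here after their values had been seen. In islet macrophages, Hspa5 was 5014, 5055 and 5323 CPM with high-fat diet and STZ, against 3543, 4208, 4928 and 4992 CPM with normal diet. No library overlapped, yet the fit gave 0.12 ± 0.14 (adjusted p = 0.972, edgeR), and 3.26% of all genes had no overlap in that direction. Syvn1 was 178, 215 and 189 CPM with STZ, against 118.6, 177, 115.1 and 167 CPM with high-fat diet (0.27 ± 0.26; 2.33% of genes). In peritoneal macrophages, P4hb was 1461, 1306, 1492, 1422 and 1510.1 CPM with STZ, against 1581, 1530.4, 1613 and 1734 CPM with high-fat diet, with no overlap (-0.16 ± 0.15; 2.87% of genes).

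Tram1, a translocating chain-associated protein, was the other pathway gene with the smallest p in microglia with STZ against high-fat diet (0.98 ± 0.22, adjusted p = 1, edgeR). In adipose tissue macrophages refed mice had higher Nupr1, a stress-induced chromatin protein (0.87 ± 0.26, adjusted p = 0.547), and Slc3a2, the heavy chain of amino acid transporters (0.45 ± 0.13, adjusted p = 0.499), and neither passed the test.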
